A study of Arabidopsis thaliana with 7 samples.

Results

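PRK, RCA and ATPC1, nuclear genes for chloroplast carbon fixation and ATP synthesis, were followed in Arabidopsis thaliana seedlings. PRK (AT1G32060) encodes phosphoribulokinase, RCA (AT2G39730) encodes Rubisco activase, and ATPC1 (AT4G04640) encodes the gamma subunit of the plastid ATP synthase. Each gene was read from the probe set that the platform annotation assigns to it alone, and where several existed the one with the highest mean signal would have been taken. Each of the 3 genes had 1 such probe set, out of 22746 probe sets of plant genes on the array. All 3 passed the filter on low signals, along with 15673 probe sets in all.

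RNA came from 7 seedling samples, each hybridised to 1 Affymetrix ATH1 array. There were 2 samples of the mutant sta1, 4 of the wild type Col-LUC and 1 of the wild type C24-LUC, where Col and C24 are natural strains. The affected gene, STA1, is named in the title of the series as one that splicing of pre-mRNA depends on. Seedlings of all groups were 2 weeks old and had grown at 22 °C on MS agar with 3% sucrose, with 16 h of light and 8 h of darkness each day, and the titles give all of them as untreated. The growth text of both sta1 samples names a different mutant, ice1, while their titles name sta1, which was used here. Not given by the labels are the natural strain of the sta1 line, the hour of harvest, and whether samples came from separate cultures. The p-values therefore measure only how far these samples spread, and that spread may be technical. STA1 transcript was not analysed here.

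In the Calvin-Benson cycle, Rubisco joins CO2 to ribulose-1,5-bisphosphate, and the rest of the cycle reduces the product to sugar phosphate and rebuilds the acceptor. PRK carries out the last step of that rebuilding and spends ATP on it. RCA is an ATP-driven chaperone that pulls inhibitory sugar phosphates out of the active site of Rubisco. ATPC1 forms the rotating shaft of the enzyme that makes the ATP. PRK and the gamma subunit are both switched on in the light through thioredoxin, which reduces a disulphide in each, so the light reactions, ATP supply and carbon fixation are coupled.

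The arrays were alike in overall brightness, with median signals between 207.8 and 215.7. The share of probe sets with a signal of 100 or more ran from 63.9% to 65.3%. Both sta1 arrays and Col-LUC 1 came from the same chip lot, and sta1 1 and Col-LUC 1 from the same session, while the array record of Col-LUC 4 was blank. Both sta1 arrays, Col-LUC 1 and the C24-LUC array were hybridised in the same calendar year, and Col-LUC 2 and Col-LUC 3 in another. The record of Col-LUC 2 carries a comment that names an abscisic acid experiment, although its title gives no treatment. The ratio of 3 prime to 5 prime actin signal was 1.38 and 1.58 in sta1 and 1.35 to 1.68 in Col-LUC, and it was 0.207 on the C24-LUC array. For the GAPDH control the ratio was 1.02 on the C24-LUC array, within the 0.945 to 1.15 of the other arrays. All signals below are MAS5 signals, a linear measure of brightness per probe set scaled to a target of 500 on every array. Differences are on the log2 scale with the standard error (SE) of the limma fit over 2 sta1 and 5 wild-type arrays. A change was called where the p-value, adjusted over all 15673 tested probe sets, was below 0.05.

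Setting sta1 against wild type asks how transcript levels differ in a mutant with a splicing defect. PRK, RCA and ATPC1 each had a signal on both sta1 arrays below that on all 5 wild-type arrays. The differences were small, between -0.36 and -0.21, and none passed the test over all probe sets. Both sta1 arrays lay below all wild-type arrays in 15.7% of all tested probe sets, so this separation was common. A difference below 0 was found in 49.2% of them. In bulk RNA of whole seedlings, fewer green cells and less of a transcript per cell cannot be told apart.

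PRK had a signal of 9181.4 and 9066.2 on the sta1 arrays, against 10440.1, 12243.6, 11004.0 and 12633.9 on the Col-LUC arrays and 12249.0 on the C24-LUC array. The sta1 arrays lay close together, and the nearest wild-type array was Col-LUC 1. On the log2 scale the mean was 13.16 ± 0.01 in sta1 (SD, n = 2) and 13.51 ± 0.12 in wild type (SD, n = 5). The difference was -0.36 ± 0.11 (limma adjusted p = 0.107), with a 95% confidence interval from -0.60 to -0.12. In linear terms the mutant had 0.781 times the wild-type level.

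RCA had a signal of 14101.2 and 12284.6 on the sta1 arrays, against 15664.3, 15515.7, 14781.5 and 15175.6 on the Col-LUC arrays and 15226.1 on the C24-LUC array. Here the wild-type arrays lay close together and the sta1 arrays did not. The log2 mean was 13.68 ± 0.14 in sta1 (SD, n = 2) and 13.90 ± 0.03 in wild type (SD, n = 5). The difference was -0.21 ± 0.09 (limma adjusted p = 0.189), with a 95% confidence interval from -0.41 to -0.01. It rested largely on sta1 2, and without that array it was -0.11. It was -0.09 with quantile normalization, so its size depends on how the arrays are scaled.

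ATPC1 had a signal of 9852.1 and 10411.7 on the sta1 arrays, against 11641.4, 12435.0, 11615.9 and 13964.6 on the Col-LUC arrays and 13410.4 on the C24-LUC array. Col-LUC 1 and Col-LUC 3 were the nearest wild-type arrays, and Col-LUC 4 was the highest. The log2 mean was 13.31 ± 0.06 in sta1 (SD, n = 2) and 13.62 ± 0.12 in wild type (SD, n = 5). The difference was -0.31 ± 0.11 (limma adjusted p = 0.136), with a 95% confidence interval from -0.56 to -0.07. With quantile normalization it was -0.19.

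**Figure D1:**
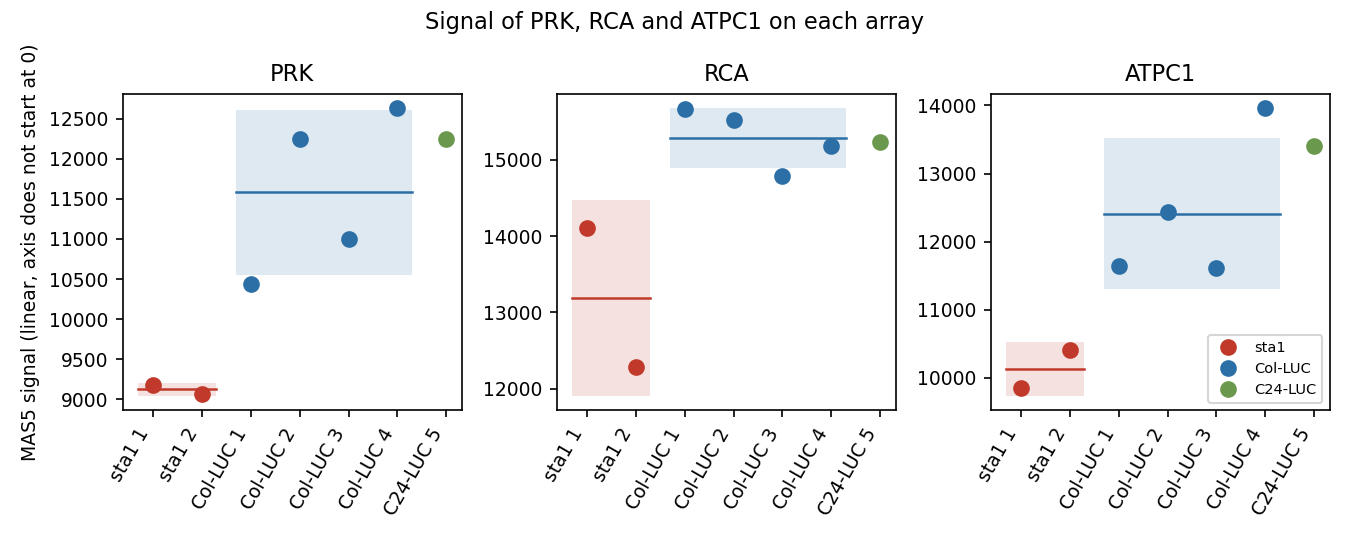
MAS5 signal (vertical axis, linear, not starting at 0) of PRK, RCA and ATPC1 on the 2 sta1 arrays, the 4 Col-LUC arrays and the C24-LUC array (horizontal axis). Lines are group means and bands are 1 SD for sta1 and Col-LUC, and in each panel both sta1 points lie below all wild-type points.

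By limma, 0 of the 3 genes passed the threshold and 3 of 3 had an unadjusted p under 0.05. As the genes were chosen with earlier results of these data known, the 3 of 3 is no test against the shares that follow. Over all tested probe sets, 0.766% were called lower and 0.542% higher (1.31% in either direction), and 11.9% were lower with an unadjusted p under 0.05. With array weights, PRK (adjusted p = 0.0172) and ATPC1 (adjusted p = 0.0305) passed, but that setting called 1741 probe sets lower and 1727 higher. Without Col-LUC 1, PRK passed as well, at -0.40 (adjusted p = 0.0437), but that setting called 735 probe sets lower and 647 higher. It leaves no wild-type array recorded in the chip lot of the sta1 arrays, so mutant and lot cannot be told apart in it. The same limit holds for every gene given below as passing without Col-LUC 1. Over the alternatives with a test the adjusted p lay between 0.0172 and 0.523 for PRK, 0.0863 and 0.717 for RCA, and 0.0305 and 0.536 for ATPC1.

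The differences were also taken within the chip lot and the session. Between sta1 1 and Col-LUC 1, the pair from 1 session, the difference was -0.19 for PRK, -0.15 for RCA and -0.24 for ATPC1. With chip lot as a block, which sets sta1 against Col-LUC 1 alone, it was -0.19 for PRK, -0.25 for RCA and -0.20 for ATPC1. The direction was the same, which the separation of the arrays made certain. Under the chip lot block PRK and ATPC1 were over 1.5 times closer to 0 than in the fit over all arrays. Without Col-LUC 2, whose record carries the comment, the differences were -0.34, -0.21 and -0.32 in the same order. All 3 differences were below 0 in all 17 alternatives tried. As both sta1 arrays lay below all wild-type arrays, only a change of scaling could have turned the sign.

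**Figure D2:**
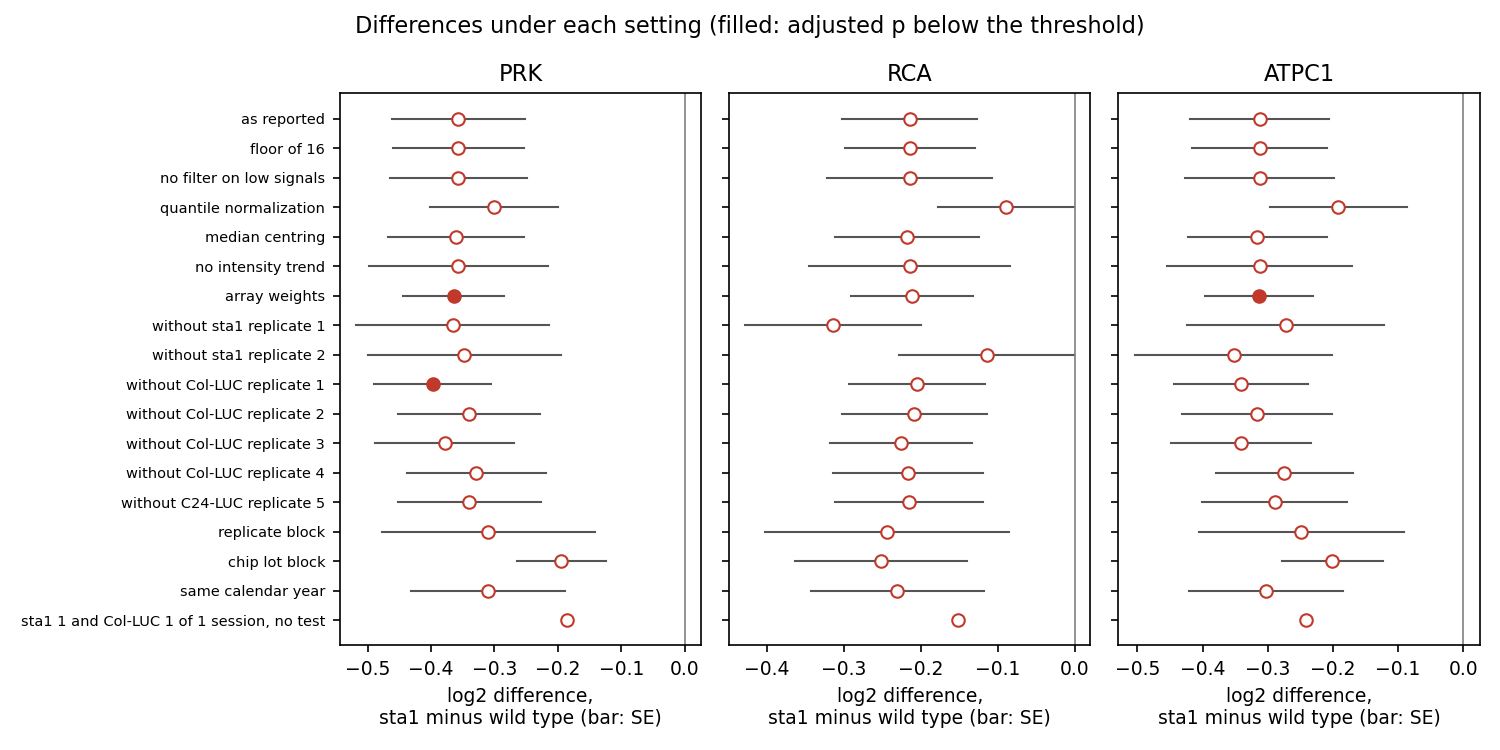
Log2 difference of sta1 minus wild type (horizontal axis) of PRK, RCA and ATPC1 in the reported fit and in 17 alternatives (vertical axis), with bars of 1 SE except for the untested session pair. Filled points passed the adjusted threshold: PRK with array weights and without Col-LUC 1, and ATPC1 with array weights.

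The wild-type strains were then compared, to see whether the strain of the control moves these genes. On the C24-LUC array PRK was higher than the Col-LUC mean by 0.09 ± 0.15 and ATPC1 by 0.12 ± 0.14, neither beyond its error (limma adjusted p = 0.875 and 0.817, 1 and 4 arrays). RCA differed by -0.01 ± 0.12 (adjusted p = 0.993), and its sign turned with quantile normalization, to 0.013. The 95% confidence intervals ran from -0.25 to 0.42 for PRK, from -0.30 to 0.29 for RCA and from -0.22 to 0.45 for ATPC1. Over all tested probe sets, 1.16% were called lower and 0.204% higher in C24-LUC. In order of mean level, sta1 was lowest for all 3 genes, and the C24-LUC signal of each lay within the Col-LUC range. The lone C24-LUC array has no spread of its own. For PRK and ATPC1 the intervals take in a rise in C24-LUC as large in size as the sta1 difference, but not a fall as large. For RCA the interval takes in a difference of that size in either direction.

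The 3 genes did not vary alike among the arrays. After each was centred on its mean over the 7 arrays, PRK and ATPC1 differed by a root mean square of 0.05 on the log2 scale. PRK and RCA differed by 0.12, and RCA and ATPC1 by 0.13. For scale, the root mean square deviation from the mean was 0.18 for PRK, 0.17 for ATPC1 and 0.11 for RCA. Among the 8519 other tested probe sets with 1 gene, PRK was the third nearest to ATPC1, and ATPC1 the sixth nearest to PRK. RCA stood at rank 302 from ATPC1 and at rank 273 from PRK. PRK and ATPC1 shared low values on both sta1 arrays, middle values on Col-LUC 1 and Col-LUC 3, and their highest values on Col-LUC 4. RCA instead was nearly level over the 5 wild-type arrays.

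The probe sets nearest to PRK were those of AT3G16190 (root mean square difference 0.03), AT5G14460 (0.04) and ndhD (0.05), a plastid-encoded subunit of the NADH dehydrogenase-like complex. Those nearest to RCA were petB (0.06), the plastid-encoded cytochrome b6, AT1G32470 (0.07), an H-protein of glycine decarboxylase in photorespiration, and AT3G15690 (0.07). Those nearest to ATPC1 were AT1G75210 (0.05), AT4G15030 (0.05) and PRK (0.05). These genes had differences in sta1 between -0.40 and -0.18, and none passed the test (limma adjusted p between 0.107 and 0.360). The measure is a description over 7 arrays that share the scaling and the group difference, and AT4G15030 had signals of 118.9 to 168.1, near the filter.

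**Figure D3:**
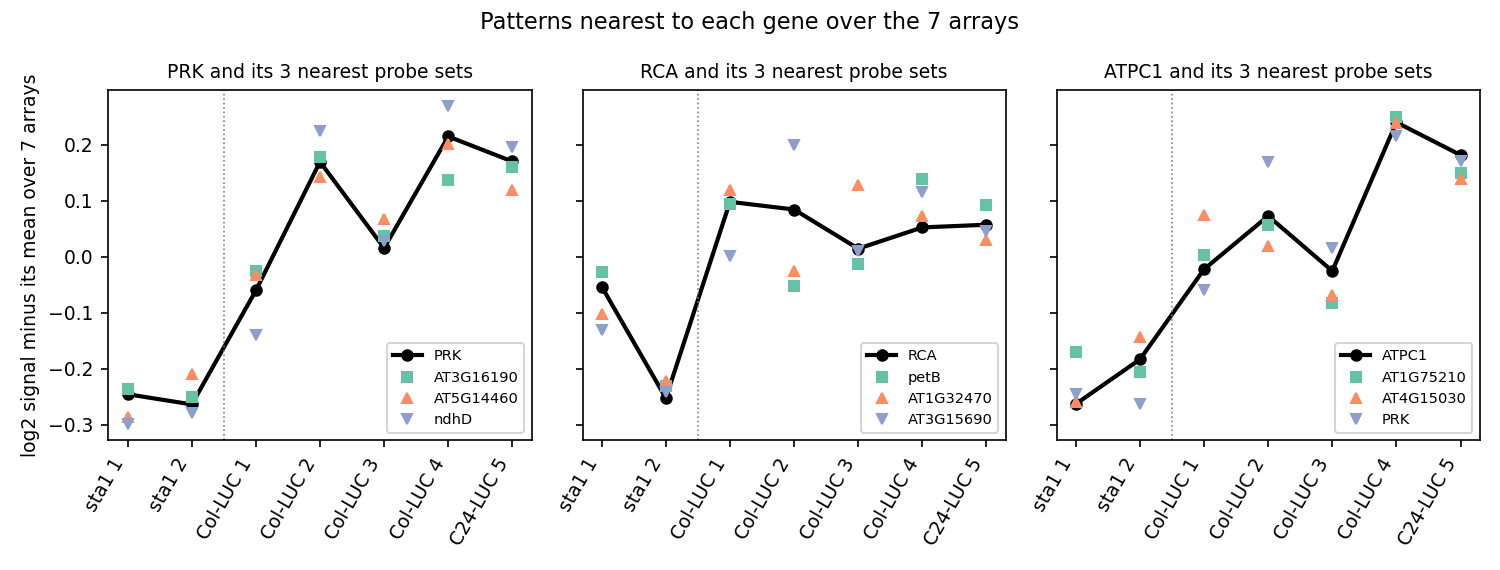
Log2 signal of each gene minus its mean over the 7 arrays (vertical axis), by array (horizontal axis), for PRK, RCA and ATPC1 (black lines) and the 3 probe sets with 1 gene nearest to each (coloured symbols). PRK and ATPC1 run from sta1 below 0 to Col-LUC 4 at the top, while RCA is nearly level over the wild-type arrays.

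Beside PRK and RCA, the Calvin-Benson cycle was represented by SBPASE and AT1G56190, so that 4 of 24 listed loci had a probe set with 1 gene and all 4 were tested. By limma 0 of the 4 passed in either direction, and PRK, RCA and SBPASE were lower with an unadjusted p under 0.05. That held for 11.9% of all tested probe sets. The median difference of the 4 was -0.28, where that of all tested probe sets was 0.01. As PRK and RCA are among the 4, the list is not independent of them. SBPASE, the sedoheptulose bisphosphatase that feeds the rebuilding of the Rubisco acceptor, had a signal of 7955.7 and 7881.6 on the sta1 arrays, against 9022.4 to 10826.2 on the wild-type arrays, with a median of 10261.2. Its groups did not overlap, as for PRK and RCA and for 15.7% of all tested probe sets in that direction. The difference was -0.34 ± 0.11 (limma adjusted p = 0.119), close in size to that of PRK, and like PRK it passed with array weights (adjusted p = 0.0270). Between sta1 1 and Col-LUC 1 it was -0.42, so SBPASE differed no less within the shared session. AT1G56190, a phosphoglycerate kinase, had a signal of 3843.4 and 3921.1 in sta1, within the wild-type range of 3347.0 to 4587.4. Its difference was -0.01 ± 0.16, and it was 0.04 with array weights and -0.22 with chip lot as a block.

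ATPC1 works inside a complex with parts from the nucleus and from the plastid genome, and these parts were set beside it. Of 4 nuclear loci listed, ATPC1 and ATPC2 had a probe set with 1 gene. ATPC2, another gene for a gamma subunit, was near the filter on low signals, at 118.2 and 185.3 in sta1 and 111.6 to 210.3 in wild type. Its difference of 0.05 ± 0.32 was far smaller than its error and turned to -0.02 with array weights.

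All 7 plastid-encoded genes listed were tested, 6 of the ATP synthase and rbcL. By limma 0 of the 7 passed and 0 had an unadjusted p under 0.05, and their median difference was -0.15. The groups overlapped in all 7. The subunits atpA and atpF had the differences farthest from 0, at -0.42 ± 0.19 and -0.47 ± 0.24 (adjusted p = 0.231 and 0.277). Both rested on sta1 1. The signal of atpA was 5746.3 on sta1 1 and 9437.2 on sta1 2, against 8181.7 to 10921.4 in wild type. That of atpF was 2839.0 on sta1 1 and 5294.2 on sta1 2, against 4397.4 to 6599.2. Without sta1 1 the differences were -0.06 for atpA and -0.02 for atpF. The proton-conducting ring subunit atpH and the subunit atpI showed the same split between the sta1 arrays. For atpH the signal was 6874.1 on sta1 1 and 9872.3 on sta1 2, and for atpI it was 896.8 and 1414.1. Their differences of -0.15 and -0.26 turned positive without sta1 1, to 0.12 and 0.07.

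The catalytic subunit atpB and the subunit atpE had differences of -0.08 ± 0.09 and -0.01 ± 0.09, which were 0.05 and 0.16 with quantile normalization. For rbcL, the large subunit of Rubisco, the difference was 0.16 ± 0.15 (adjusted p = 0.557). Its signal was 3498.0 and 3901.0 in sta1 and 2830.1 to 3807.1 in wild type. Whether ATPC1 differs from its plastid-encoded partners in its response was not tested.

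Rubisco assembly factors were followed because RCA acts on the same enzyme. Of 11 listed loci 5 were tested, 0 passed in sta1 by limma, and the median difference was 0.03. Cpn60beta3, a subunit of the chaperonin that folds plastid proteins, had a signal of 970.5 and 1013.8 in sta1, against 523.9 to 867.0 in wild type. It lay above all wild-type arrays, as did 16.7% of all tested probe sets. Its difference was 0.60 ± 0.20 (adjusted p = 0.131), and it was 0.16 between sta1 1 and Col-LUC 1. It passed with array weights (adjusted p = 0.0199) and without Col-LUC 1, at 0.70 (adjusted p = 0.0418). AT5G51110 had a difference of -0.18, which was -0.0082 with chip lot as a block. AT3G47650 had one of -0.05, which was 0.0076 with chip lot as a block.

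A Rubisco accumulation factor, AT5G28500, set C24-LUC apart and was singled out after its values were seen. Its signal was 875.3 on the C24-LUC array and 2799.3 to 3205.9 on the 4 Col-LUC arrays, while the sta1 arrays had 2480.1 and 2817.0. The difference of C24-LUC minus Col-LUC was -1.78 ± 0.16 (limma adjusted p = 0.00409, 1 and 4 arrays), and it lay between -1.82 and -1.75 over 12 alternatives. It was the 1 call for C24-LUC in all the lists examined, where 1.37% of all tested probe sets were called. The strain, its single array and that array's low actin ratio cannot be told apart here. Whether the lower signal of the probe set means less transcript in C24-LUC was not tested.

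PRK and ATPC1 are activated by stromal thioredoxin, and 4 of 9 loci of that system were tested. By limma 0 passed, and the median difference was -0.23. All 4 differences were below 0, as were 49.2% of those over all tested probe sets. TRXF2, a thioredoxin of the f type that activates Calvin-Benson enzymes, had a signal of 1045.4 and 995.0 in sta1, against 1441.3, 2961.8, 2005.9 and 2491.7 in Col-LUC and 2136.8 in C24-LUC. Both sta1 arrays lay below all wild-type arrays, as in 15.7% of all tested probe sets, and Col-LUC 1 lay closest to them. The difference was -1.07 ± 0.25 (adjusted p = 0.0737), which passed without Col-LUC 1 at -1.22 (adjusted p = 0.0163) and with array weights at -1.13 (adjusted p = 0.00734). Between sta1 1 and Col-LUC 1 it was -0.46. AT2G04700, a subunit of ferredoxin-thioredoxin reductase, and NTRC, the NADPH-dependent thioredoxin reductase of plastids, had differences of -0.25 ± 0.13 and -0.21 ± 0.15, which were -0.057 and -0.30 with chip lot as a block.

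Photorespiration salvages the product that Rubisco makes with oxygen, and 3 of 15 listed loci were tested. By limma 0 passed and 2 were lower with an unadjusted p under 0.05, as were 11.9% of all tested probe sets. The median difference was -0.65. AT1G80380, the glycerate kinase that returns carbon to the cycle, had a signal of 1896.9 and 1703.6 in sta1, against 2583.8 to 3260.6 in wild type with a median of 2781.5. HPR, hydroxypyruvate reductase, had 5881.1 and 5820.9 in sta1, against 7422.1 to 11416.5 with a median of 10444.0. Both genes were separated between the groups, as were 15.7% of all tested probe sets in that direction. Their differences were -0.65 ± 0.13 (limma adjusted p = 0.0598) and -0.68 ± 0.18 (limma adjusted p = 0.0926). Without Col-LUC 1 both passed, with adjusted p of 0.0289 and 0.0340, and with array weights, with adjusted p of 0.00737 and 0.0120. Under the chip lot block the difference was -0.34 for HPR and -0.52 for AT1G80380, and between sta1 1 and Col-LUC 1 it was -0.34 and -0.45. Leaving out Col-LUC 1 raised the calls over all probe sets to 735 lower and 647 higher. AT1G11860, a glycine decarboxylase subunit, had a difference of -0.19 ± 0.13, which was -0.35 with chip lot as a block. In sucrose synthesis AT2G35840, a sucrose phosphatase, the 1 tested locus of 12, had a difference of 0.14 ± 0.19, which was -0.14 with chip lot as a block.

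**Figure D4:**
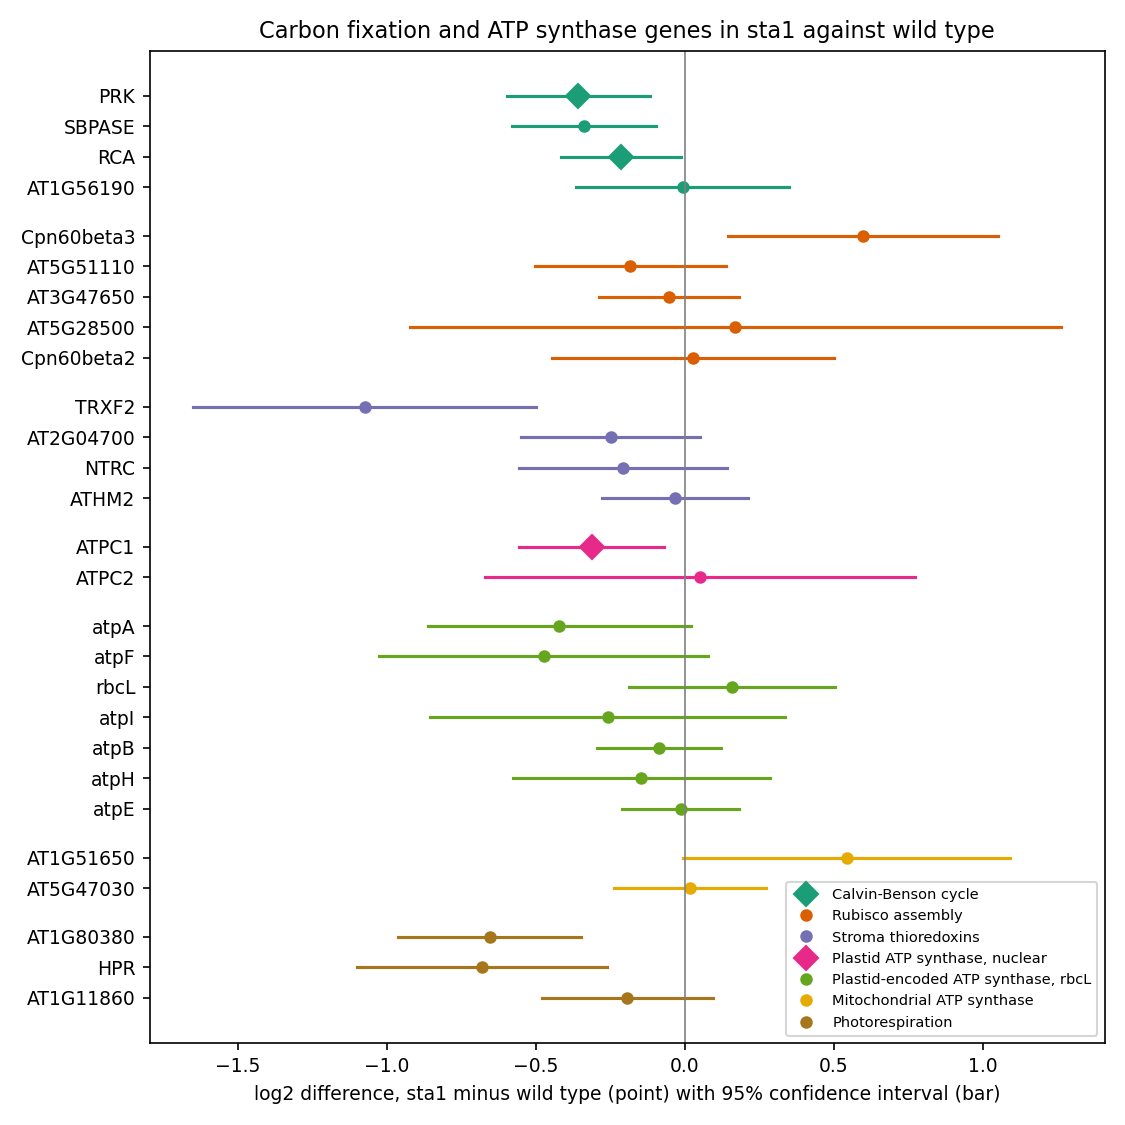
Log2 difference of sta1 minus wild type (horizontal axis) with its 95% confidence interval (bars) for each tested gene of 7 lists (vertical axis, coloured by list), with PRK, RCA and ATPC1 as diamonds. TRXF2, AT1G80380 and HPR lie farther below 0 than the 3 diamonds, and Cpn60beta3 and AT1G51650 lie above 0.

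The mitochondrial ATP synthase served as a counterpart outside the chloroplast. Of 9 listed loci 2 were tested and 0 passed by limma. AT1G51650, its epsilon subunit, had a difference of 0.54 ± 0.24 (adjusted p = 0.217), with signals of 4883.5 and 4206.8 in sta1 and 2256.5 to 4589.3 in wild type. It passed with array weights (adjusted p = 0.0438) and without Col-LUC 1, at 0.68 (adjusted p = 0.0489). Under the chip lot block the difference was -0.018. AT5G47030, its delta subunit, had a difference of 0.02 ± 0.11, at 0 within its error.

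Subunits of the photosystems and antennae supply the electrons and protons for these steps. Of 41 listed loci 6 were tested, and 4 fell and 0 rose in sta1, where 0.766% of all tested probe sets were called lower and 0.542% higher. The median difference of the 6 was -0.74. They were PSAN of photosystem I (-2.09 ± 0.19, limma adjusted p = 0.00642), the antenna proteins LHCB4.2 (-1.25 ± 0.19, adjusted p = 0.0261) and LHCB4.1 (-0.68 ± 0.11, adjusted p = 0.0360), and PSBW of photosystem II (-0.81 ± 0.14, adjusted p = 0.0421). All 4 calls were lost on leaving out either sta1 array, with the replicate number or chip lot as a block, and with wild-type arrays of the same calendar year. Without the filter on low signals LHCB4.2, LHCB4.1 and PSBW were lost as well (adjusted p = 0.0872, 0.119 and 0.0997), and further settings ended calls of these 3. Over the 17 alternatives the difference stayed between -2.28 and -1.59 for PSAN, -1.34 and -0.95 for LHCB4.2, -0.74 and -0.43 for LHCB4.1, and -0.90 and -0.50 for PSBW. Over the 9 lists of photosynthesis, carbon metabolism and ATP synthesis, with 34 tested genes, these were the 4 genes called, and 0 were called higher. The difference in response between the photosystem list and PRK, RCA or ATPC1 was not tested.

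Markers of other tissues and states were read beside the 3 genes. Of 12 root markers 3 were tested, none at 0, and their summed signal was 9906.0 and 11490.2 in sta1 against 10293.8 to 14437.2 in wild type. Most of that sum was PYK10, at 9532.9 to 13975.6 over all arrays. EXPA18 (156.0 to 397.4) and EXPA7 (96.4 to 291.0) had low signals. PYK10, an abundant root glucosidase, had a difference of -0.19 ± 0.16, EXPA18 of -0.31 ± 0.34, and EXPA7 of 0.19 ± 0.39. Under the chip lot block these were -0.22, -1.02 and -0.47, and between sta1 1 and Col-LUC 1 all 3 were below 0, with a median of -0.49. Leaving out 1 array moved EXPA18 between -0.61, without sta1 1, and -0.0068, without sta1 2. Root and green transcripts were thus both present on every array, as whole seedlings hold. Of 10 senescence and dark-induced genes 3 were tested, and in all 3 the sta1 signals exceeded every wild-type signal, as in 16.7% of all tested probe sets. Their summed signal was 703.1 and 885.6 in sta1 against 254.3 to 582.1 in wild type. WRKY53, WRKY6 and SAG101 had differences of 1.59 ± 0.61, 0.81 ± 0.30 and 0.86 ± 0.43, and 0 passed by limma (adjusted p = 0.173, 0.159 and 0.265). The WRKY53 signals on Col-LUC 1 and the C24-LUC array, of the same calendar year as the sta1 arrays, were 178.3 and 162.7. Those on Col-LUC 2, Col-LUC 3 and Col-LUC 4 were 43.1, 37.8 and 45.8, and were set to the floor of 50. The size of the WRKY53 difference therefore depends on the floor, and it was 1.74 with a floor of 16. With array weights WRKY53 and WRKY6 passed (adjusted p = 0.0248 and 0.0245). Under the chip lot block the differences were 0.46 for WRKY53, 0.43 for WRKY6 and 0.61 for SAG101, closer to 0 in each.

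The clock gene GI, the 1 tested of 12 listed, had a signal of 325.8 and 294.8 in sta1, against 341.2, 1636.4, 490.7 and 870.2 in Col-LUC and 603.6 in C24-LUC. Its difference of -1.13 ± 0.52 did not pass (limma adjusted p = 0.229), and it was -0.07 between sta1 1 and Col-LUC 1. The spread of GI over the wild-type arrays was wider than that of any of the 3 genes. The part of senescence and of the hour of harvest in the values of PRK, RCA and ATPC1 was not tested.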

How the data were processed

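The deposited intensity of each probe set is a MAS5 signal which, per the labels, the authors scaled to 500 on every array. The version of MAS5 was not stated. From these intensity values, 64 control probe sets were left out, signals under 50 were set to 50, and log2 was taken. Testing was limited to probe sets that reached 100 on 2 or more arrays, 15673 of 22746, or 68.9%. Linear models were fitted to the whole table with limma 3.58.1 in R 4.3.3 (lmFit, eBayes with an intensity trend), with Benjamini-Hochberg adjustment over all tested probe sets. The fit of sta1 against wild type used all 5 wild-type arrays. The fit of C24-LUC against Col-LUC used 3 groups and assumed that the lone C24-LUC array varies like the others. The procedure was tested on simulated data. Arrays have no read depth, and precision is limited by their number.

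Names came from the platform's annotation table and, by gene identifier, a RefSeq gene table (TAIR10.1). 13513 probe sets had 1 gene, 503 several and 8730 none assigned, and 13436 matched RefSeq. Of 166 loci in 12 lists, 41 had a probe set with 1 gene. The genes and lists were chosen with earlier results of these data known. Named from each list were all called genes or, with none, up to 3 with the smallest p. All tested genes of the Calvin-Benson and plastid ATP synthase lists were named, with the 3 probe sets nearest to each of PRK, RCA and ATPC1. Alternatives covered floor, filter, scaling, trend, array weights, each array left out, replicate number and chip lot as blocks, calendar year and session. Sequences were not used here.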

Additional observations from a re-analysis of the deposited data

Results flagged for a closer look

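WRKY53 had a signal of 178.3 on Col-LUC 1, while the other Col-LUC arrays lay between 37.8 and 45.8. Those lower signals were all under the floor of 50 used for testing. The signal on Col-LUC 1 stood apart from its group of 4 by more than the 95% limit for such a gap. It was 1 of 44 such groups of values examined, where chance would give 2.2. The C24-LUC array had 162.7 and the sta1 arrays 327.6 and 184.2. These 3 arrays share a calendar year with Col-LUC 1, which Col-LUC 2 and Col-LUC 3 do not. Whether the year bears on WRKY53 was not tested.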

How the results depend on the processing

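PRK, RCA and ATPC1 kept a negative difference in sta1 in all 17 alternatives, from -0.40 to -0.19 for PRK, from -0.31 to -0.09 for RCA and from -0.35 to -0.19 for ATPC1. Only a change of scaling could have turned these signs, because both sta1 arrays lay below all wild-type arrays. PRK (-0.36) and ATPC1 (-0.31) passed with array weights. With 1 array left out PRK lay between -0.40 and -0.33, and it passed without Col-LUC 1. In the session pair, PRK was -0.19 and RCA -0.15. The number of called probe sets, 85 higher and 120 lower, was less stable. It was 28 lower without a filter, 71 lower without the trend, and 1727 higher and 1741 lower with array weights. Leaving out 1 array gave 0 to 647 higher and 0 to 735 lower, with 0 without either sta1 array. Chip lot as a block and the same calendar year gave 0 and 0 by limma, where 2293 and 2369 had an unadjusted p under 0.05. List members called lower, 4 of 34, numbered 1 without a filter, 2 without the trend, 12 with array weights (and 2 higher), 0 with either block or the same year, and 0 to 8 lower and 0 to 2 higher with 1 array left out. The replicate number as a block gave 0 calls in either direction by limma, with 2198 at an unadjusted p under 0.05, and differences of -0.31 for PRK, -0.24 for RCA and -0.25 for ATPC1. The numbers pair nothing in the labels, though by the array records sta1 1 and Col-LUC 1 share a chip lot and a session. Deviations from the group mean correlated at 0.192 for number 1 and -0.007 for number 2. Crossing the numbers gave -0.192 and 0.007, because the deviations of 2 sta1 arrays are opposites by construction, so these values cannot show a pairing. Where a call was lost or gained, the cause was not tested.

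For C24-LUC, 32 higher and 182 lower calls became 234 higher without a filter, 91 higher and 309 lower with array weights, and 6 to 170 higher and 57 to 312 lower with 1 array left out. RCA turned to 0.013 with quantile normalization and lay between -0.021 and 0.0068 with 1 array left out. Signs near 0 also turned in sta1. With quantile normalization atpB was 0.046 and atpE 0.16. With array weights AT1G56190 was 0.039 and ATPC2 -0.023. With the replicate block ATPC2 was -0.074 and EXPA7 -0.36. With chip lot as a block AT3G47650 was 0.0076, AT1G51650 -0.018, AT5G47030 -0.00094, AT2G35840 -0.14 and EXPA7 -0.47. In the same calendar year atpH was 0.033, AT2G35840 -0.055 and EXPA7 -0.0077. With 1 array left out the ranges were -0.063 to 0.051 for AT1G56190, -0.11 to 0.0041 for AT3G47650, -0.27 to 0.38 for ATPC2, -0.59 to 0.070 for atpI, -0.41 to 0.12 for atpH, -0.059 to 0.032 for atpE, -0.076 to 0.11 for AT5G47030 and -0.040 to 0.36 for EXPA7. No other probe set has PRK, RCA or ATPC1 as its only gene, so that alternative could not be run.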
